A study of Mus musculus with 14 samples.

Results

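Aquaporins are channels that let water cross cell membranes, and the V2 vasopressin receptor, encoded by Avpr2, is the receptor through which the antidiuretic hormone acts on the collecting duct. The genes described here are 7 aquaporins (Aqp1, Aqp2, Aqp3, Aqp4, Aqp6, Aqp7 and Aqp11) and Avpr2, taken by symbol. They are 8 of the 24411 genes listed in the count files, and all 8 passed the expression filter that left 14300 genes for testing. Their levels were measured by bulk RNA sequencing of kidney from male C57/B6 mice aged 8 weeks, at day 0 (4 libraries), day 1 (5 libraries) and day 3 (5 libraries) after renal ischemia/reperfusion injury (IRI), in which the blood supply of the kidney is stopped and then restored. The file names mark day 0 as control. Whether these mice had sham surgery is not given in the sources used here. Each library was treated as a replicate of its day. The labels do not say whether each library came from a separate animal, so p-values measure the spread between these libraries.

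File names also carry a library number, written with 1 or with 3 digits. Day 0 holds 1-digit numbers exclusively. Day 1 has 3 such libraries (replicates 3 to 5) next to 2 with 3-digit numbers, while day 3 has 2 (replicates 4 and 5) next to 3 with 3-digit numbers. What this number format marks is not stated, and because 3-digit numbers are absent at day 0, a format difference and a difference between days cannot be told apart where 3-digit libraries are set against day 0. The comparisons of the members and of the gene lists with day 0 are therefore also given for the 1-digit libraries alone, and those of other named genes where the call or the size differed. Reads on genes ranged from 12485579 to 20476979 per library, and the member counts behind the values ran from 28 reads (Aqp6 in a day 3 library) to 26361 reads (Aqp1 in a day 0 library). Levels are given in CPM, the read count relative to the total reads on genes of the library after scaling by edgeR's TMM factors. Fold changes, standard errors (SE) and adjusted p-values are from edgeR's quasi-likelihood test, with Benjamini-Hochberg adjustment over the 14300 genes, and an adjusted p under 0.05 was called a change. Day 1 has 2 libraries with 3-digit numbers and day 3 has 2 with 1-digit numbers, so leaving out replicate 1 or 2 of day 1, or replicate 4 or 5 of day 3, leaves 1 library in that arm of a comparison by format or within a format. The lone library is then assumed to vary like the other groups. In bulk tissue, fewer cells of a type and less RNA per cell cannot be told apart.

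Water is taken back from the filtrate in 2 ways. In the proximal tubule and the thin descending limb, Aqp1 lies in both the apical and the basolateral membrane and water follows salt at all times. In the collecting duct, vasopressin binds Avpr2 on the basolateral side of principal cells, the receptor raises cAMP through Gs and adenylyl cyclase, and protein kinase A phosphorylates Aqp2, which is carried in vesicles to the apical membrane. Water then leaves the cell through Aqp3 and Aqp4 in the basolateral membrane. cAMP also raises transcription of Aqp2. Aqp6 lies in vesicles of the acid-secreting intercalated cells, Aqp7 is a channel for water and glycerol in the last, straight part of the proximal tubule and also in fat cells, and Aqp11 lies inside proximal tubule cells, in the endoplasmic reticulum. Concentrating defects with low collecting duct aquaporins are a known feature of ischemic kidney injury.

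In GENCODE's annotation of GRCm38, the build that is also called mm10, Aqp2 (ENSMUSG00000023013.5; chr15:99579055-99584547, plus strand) and Aqp6 (ENSMUSG00000043144.6; chr15:99601400-99605477, plus strand) are neighbours on the same strand, and Aqp3 (ENSMUSG00000028435.8; chr4:41092722-41098183, minus strand) and Aqp7 (ENSMUSG00000028427.13; chr4:41033074-41048139, minus strand) also lie close together. Aqp1 (ENSMUSG00000004655.5) lies at chr6:55336432-55348555 on the plus strand and Aqp11 (ENSMUSG00000042797.9) at chr7:97724006-97738289 on the minus strand. Avpr2 (ENSMUSG00000031390.8) lies at chrX:73892102-73895502 on the plus strand. L1cam and Arhgap4 overlap Avpr2 on the minus strand. The strand-specific counts keep such partners apart, and at most 3 reads of a library fell on the strand opposite to Avpr2. L1cam itself was at 52.3 ± 16.7 CPM (SD, n = 4) at day 0, 21.0 ± 11.5 (n = 5) at day 1 and 35.3 ± 17.1 (n = 5) at day 3, and Arhgap4 at 5.07 ± 1.36, 1.79 ± 0.754 and 3.74 ± 2.71.

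The promoters of Aqp2 and Aqp3 are shown because these channels are made by the same principal cells, and transcription of Aqp2 is known to respond to cAMP. The sequences are the 250 bases before the start site in RefSeq's annotation of GRCm38.p6, chr15:99578806-99579055 on the plus strand for Aqp2 and chr4:41098184-41098433 on the minus strand for Aqp3, in lower case with motif matches in capitals.
Aqp2: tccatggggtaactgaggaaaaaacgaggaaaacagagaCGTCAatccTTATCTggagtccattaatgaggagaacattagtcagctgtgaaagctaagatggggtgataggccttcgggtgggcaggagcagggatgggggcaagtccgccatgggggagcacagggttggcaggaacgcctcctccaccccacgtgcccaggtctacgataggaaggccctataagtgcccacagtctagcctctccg
Aqp3: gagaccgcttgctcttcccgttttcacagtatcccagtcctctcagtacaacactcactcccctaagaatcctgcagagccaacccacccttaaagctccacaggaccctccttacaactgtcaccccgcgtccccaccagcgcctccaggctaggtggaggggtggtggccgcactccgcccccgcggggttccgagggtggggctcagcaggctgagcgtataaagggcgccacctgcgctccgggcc
The motifs searched on both strands were the core of the cAMP response element, spelled TGACG, the core of the tonicity element bound by NFAT5, spelled TGGAAA, part of the HNF1 element, spelled GTTAAT, and a GATA element, spelled AGATAA. In the Aqp2 sequence the capitals mark a cAMP response element match on the minus strand, starting 211 bases before the start site, and a GATA match on the minus strand, starting 202 bases before it. The Aqp3 sequence held no match to these letters. RefSeq's table had entries for 7 of the 8 genes, and the only other matches were a tonicity and a GATA element in 1 of the 2 Aqp7 promoters. Of all 32817 promoters of that length, 17.7% held the cAMP response element core, 18.6% the tonicity element, 6.44% the HNF1 element and 9.99% the GATA element, so matches of this kind are common. A match describes the sequence and is not a site of binding.

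Levels of different genes were compared as CPM per kilobase of exon. At day 0, Aqp1 was the most abundant of the 8 at 572 ± 42.4 CPM per kilobase (SD, n = 4), followed by Aqp2 at 326 ± 95.9 and Aqp3 at 74.1 ± 4.15. Aqp6 followed at 26.0 ± 6.11 and Aqp4 at 19.6 ± 4.91, and their ranges overlapped. Below them came Avpr2 at 11.8 ± 1.85, Aqp7 at 7.24 ± 0.898 and Aqp11 at 4.49 ± 0.225. Every other neighbouring pair in that order was separated in all 4 libraries. The order depends on the exon length used, the union over all annotated transcripts. That length was 9418 bases for Aqp11, 2886 for Avpr2 and 2828 for Aqp7. In CPM the mean of Aqp11 (42.3 ± 2.12) was above those of Avpr2 (34.0 ± 5.35) and Aqp7 (20.5 ± 2.54). At day 1 the mean of Aqp2 (222 ± 107, n = 5) was above that of Aqp1 (185 ± 98.1), with overlapping ranges. Aqp3 was at 58.2 ± 13.1, above every library of Aqp6 (7.61 ± 2.50), and from Aqp6 down all neighbours overlapped. At day 3 Aqp1 (177 ± 108, n = 5) and Aqp2 (157 ± 94.0) overlapped, Aqp3 stood at 43.2 ± 12.3, and the remaining 5 genes had means between 2.95 (Avpr2) and 5.25 (Aqp6).

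At day 1 after IRI, Aqp1, Aqp4, Aqp6, Aqp11 and Avpr2 were lower than at day 0, by 2.01-fold (Aqp11) to 4.79-fold (Aqp4). Of the 8 genes, 5 passed the test, all lower, and for the same 5 genes the day 1 libraries lay below every day 0 library. The background was high in this injury: 42.1% of the 14300 genes tested were called at day 1, 18.7% as lower, and 20.5% had day 1 libraries all below those of day 0. The median log2 fold change of the 8 genes was -1.32, and that of all genes tested was 0.01. Aqp2, Aqp3 and Aqp7 did not pass the test, with log2 fold changes of -0.55 (SE 0.43, adjusted p = 0.314), -0.35 (SE 0.20, adjusted p = 0.162) and -0.49 (SE 0.32, adjusted p = 0.217), and their groups overlapped. The count was 3 of 8 without replicate 3 of day 0, where 33.1% of all genes were called, a share near the background.

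At day 3 the genes that were lower than at day 0 were Aqp1, Aqp3, Aqp4, Aqp6 and Avpr2, again 5 of 8 and again with no gene higher. Among all genes tested 33.3% were called at this day and 13.8% as lower. The day 3 libraries of 6 genes (the 5 called and Aqp7) lay below every day 0 library, which held for 16.5% of all genes. The median log2 fold change was -1.38 over the 8 genes and 0.05 over all genes tested. The largest fold changes were those of Aqp4 (6.53-fold lower), Aqp6 (4.93-fold lower) and Avpr2 (3.97-fold lower). Without replicate 3 of day 0 the count was 3 of 8, where 23.0% of all genes were called. The comparisons of day 1 and of day 3 share the day 0 libraries.

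Within the 1-digit libraries 7 of 8 genes were lower at day 1 than at day 0, all but Aqp3, and 7 of 8 were lower at day 3, all but Aqp11. The background in these comparisons was higher still, with 58.5% of genes called at day 1 (29.6% as lower) and 53.7% at day 3 (25.1% as lower). The day 1 libraries of the 7 genes lay below all those of day 0, as in 33.3% of all genes, and so did the day 3 libraries of their 7, as in 33.4% of all genes. The median log2 fold change of the 8 genes was -1.21 at day 1 and -2.20 at day 3, against -0.05 and 0.05 over all genes. Without replicate 4 of day 1, which leaves 2 libraries, the count at day 1 was 4 of 8, where 48.9% of all genes were called, a share near the background.

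**Figure D1:**
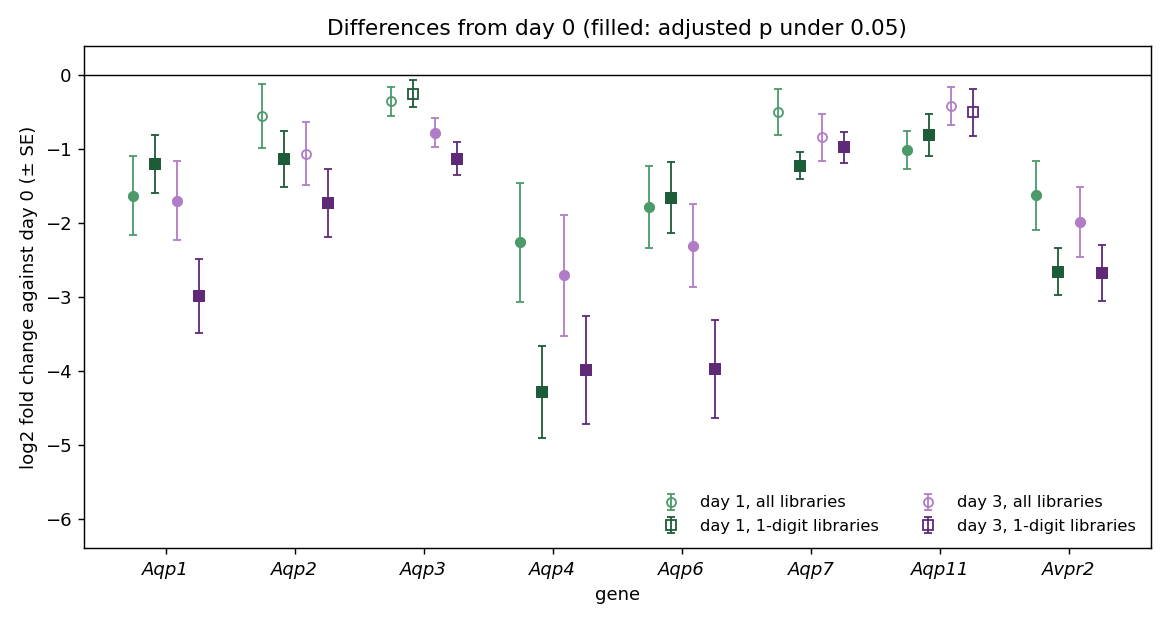
Log2 fold change against day 0 with its SE (vertical axis) for each of the 8 genes (horizontal axis), at day 1 (green) and day 3 (purple), from all libraries of a day (circles) and from its 1-digit libraries (squares), with filled symbols for an adjusted p under 0.05. Every value lies below 0, and the lowest is that of Aqp4 in the 1-digit libraries of day 1, at -4.28.

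Avpr2, the receptor at the head of the pathway, was at 27.5, 34.3, 33.5 and 40.6 CPM in the 4 libraries of day 0. In replicates 1 to 5 of day 1 it was at 16.3, 22.3, 4.63, 5.89 and 5.63 CPM, and in those of day 3 at 5.34, 9.69, 16.9, 4.98 and 5.66 CPM. All 10 libraries after IRI were below all 4 of day 0, and the 5 libraries of these days with a 1-digit number all lay between 4.63 and 5.89. The log2 fold change was -1.62 (SE 0.47, adjusted p = 0.0132) at day 1 and -1.99 (SE 0.47, adjusted p = 0.00623) at day 3. Within the 1-digit libraries it was -2.65 (SE 0.32, adjusted p = 2.06e-05) at day 1 and -2.67 (SE 0.38, adjusted p = 0.000114) at day 3, or 6.30-fold and 6.39-fold lower. With only the 3-digit libraries of the later days, the day 1 value was -0.81 (adjusted p = 0.101) and did not pass. No single library decided the call at either day.

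Aqp4 (ENSMUSG00000024411.10; chr18:15389496-15410982, minus strand, overlapped by the antisense gene AC133525.2, with at most 2 opposite-strand reads in a library), a basolateral water channel of principal cells, showed the largest decrease of the 8 genes at day 1. It was at 107, 121, 165 and 95.5 CPM at day 0, at 36.6, 70.9, 3.82, 5.14 and 10.1 CPM in replicates 1 to 5 of day 1, and at 16.1, 8.84, 52.7, 11.2 and 4.04 CPM in those of day 3. The groups did not overlap, and within day 1 the 3 libraries with 1-digit numbers were far below both with 3-digit numbers. The log2 fold change was -2.26 (SE 0.80, adjusted p = 0.0349) at day 1. That call was close to the threshold: it was lost on leaving out any of the 4 libraries of day 0 (adjusted p from 0.05001 to 0.0791) or replicate 3, 4 or 5 of day 1 (0.0583, 0.07003 and 0.0773), and without replicate 2 of day 1 the value was -3.12 (0.00637). In the 1-digit libraries Aqp4 was 19.5-fold lower at day 1, at 6.34 ± 3.29 CPM (SD, n = 3) against 122 ± 30.6 (n = 4), a log2 fold change of -4.28 (SE 0.62, adjusted p = 8.72e-05). In the same 3 libraries Slc14a2, a gene of the inner medullary collecting duct chosen after its values were seen, was also far below day 0 (levels below). Of 9 thin limb genes tested, 6 were lower there and 3 higher. The part of the tissue sampled was not given. Its share in these low values of Aqp4, and in those of Avpr2 and Aqp2, was not tested. With only the 3-digit libraries of the later days the day 1 value was -1.18 (adjusted p = 0.142) and the call was lost, as it was with library totals in place of TMM scaling (-2.17, adjusted p = 0.0526). At day 3 the log2 fold change was -2.71 (SE 0.81, adjusted p = 0.0204) over all libraries and -3.99 (SE 0.73, adjusted p = 0.000658) over the 1-digit libraries, where it was -4.91 (adjusted p = 0.00281) without replicate 4, with 1 library of day 3 left. The value over all libraries was lost as a call without replicate 3 of day 0 (-2.53, adjusted p = 0.0515) and was -3.63 (adjusted p = 0.00534) without replicate 3 of day 3.

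Aqp2, the apical channel that vasopressin moves, was within its day 0 range in some libraries after IRI. Its day 0 levels of 374, 358, 462 and 655 CPM overlapped those of day 1 (449, 496, 177, 172 and 284 CPM in replicates 1 to 5) and of day 3 (296, 122, 413, 192 and 87.0 CPM). Both 3-digit libraries of day 1 were within the range of day 0, and the 3 with 1-digit numbers were below it. Over all libraries the log2 fold change was -0.55 at day 1 and -1.06 (SE 0.43, adjusted p = 0.0714) at day 3, and neither passed the test. The day 3 value passed without replicate 3 of day 3 (-1.44, adjusted p = 0.0191) and by DESeq2's Wald test (-1.07, adjusted p = 0.0414). Within the 1-digit libraries Aqp2 was 2.19-fold lower at day 1 (log2 fold change -1.13, SE 0.38, adjusted p = 0.0211) and 3.32-fold lower at day 3 (-1.73, SE 0.46, adjusted p = 0.00654). The former was lost without replicate 4 of day 0 (-0.92, adjusted p = 0.0588), replicate 3 of day 1 (-1.02, adjusted p = 0.0720) or replicate 4 of day 1 (-1.002, adjusted p = 0.0844), and the latter without replicate 5 of day 3 (-1.24, adjusted p = 0.0961), which leaves 1 library of that day. Without replicate 4 of day 3, which also leaves 1, it was -2.41 (adjusted p = 0.00655). With number format as a term in the fit of all libraries, Aqp2 passed at day 1 (-1.10, adjusted p = 0.0168) and day 3 (-1.78, adjusted p = 0.00222). With only the 3-digit libraries of the later days its day 1 value was 0.0367 (adjusted p = 0.950). Replicate 4 of day 0, with the highest level of Aqp2 of all libraries, also had the highest summed level of the urothelial list among the day 0 libraries (93.0 CPM against 6.12 to 18.3), and the part of this in its Aqp2 level was not tested.

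Aqp3, the other basolateral channel of principal cells, had the smallest fold changes among Avpr2, Aqp2, Aqp3 and Aqp4 over all libraries and within the 1-digit ones. It was at 131, 142, 142 and 127 CPM at day 0 and at 105, 83.1, 114, 86.5 and 142 CPM in replicates 1 to 5 of day 1, where replicate 5 was as high as the kidneys of day 0. At day 3 it was at 74.1, 80.5, 116, 57.6 and 66.7 CPM, and every library was below day 0. The decrease at day 3 was 1.71-fold (log2 fold change -0.78, SE 0.20, adjusted p = 0.00842), and 2.18-fold in the 1-digit libraries (-1.12, SE 0.22, adjusted p = 0.000942). At day 1 the value within the 1-digit libraries was -0.24 (SE 0.18, adjusted p = 0.264), and with only the 3-digit libraries of the later days Aqp3 passed (-0.52, adjusted p = 0.0455). Aqp3 is also known in the urothelium, whose 9 marker genes together had 6.12 to 93.0 CPM at day 0, 5.59 to 149 CPM at day 1 and 4.51 to 70.5 CPM at day 3, with none of the 9 at 0 in all libraries of a day. Of these 9 genes 1, Upk2 (named after its values were seen), was lower at day 3 (log2 fold change -4.44, adjusted p = 0.0233), and their part in the Aqp3 level was not tested.

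**Figure D2:**
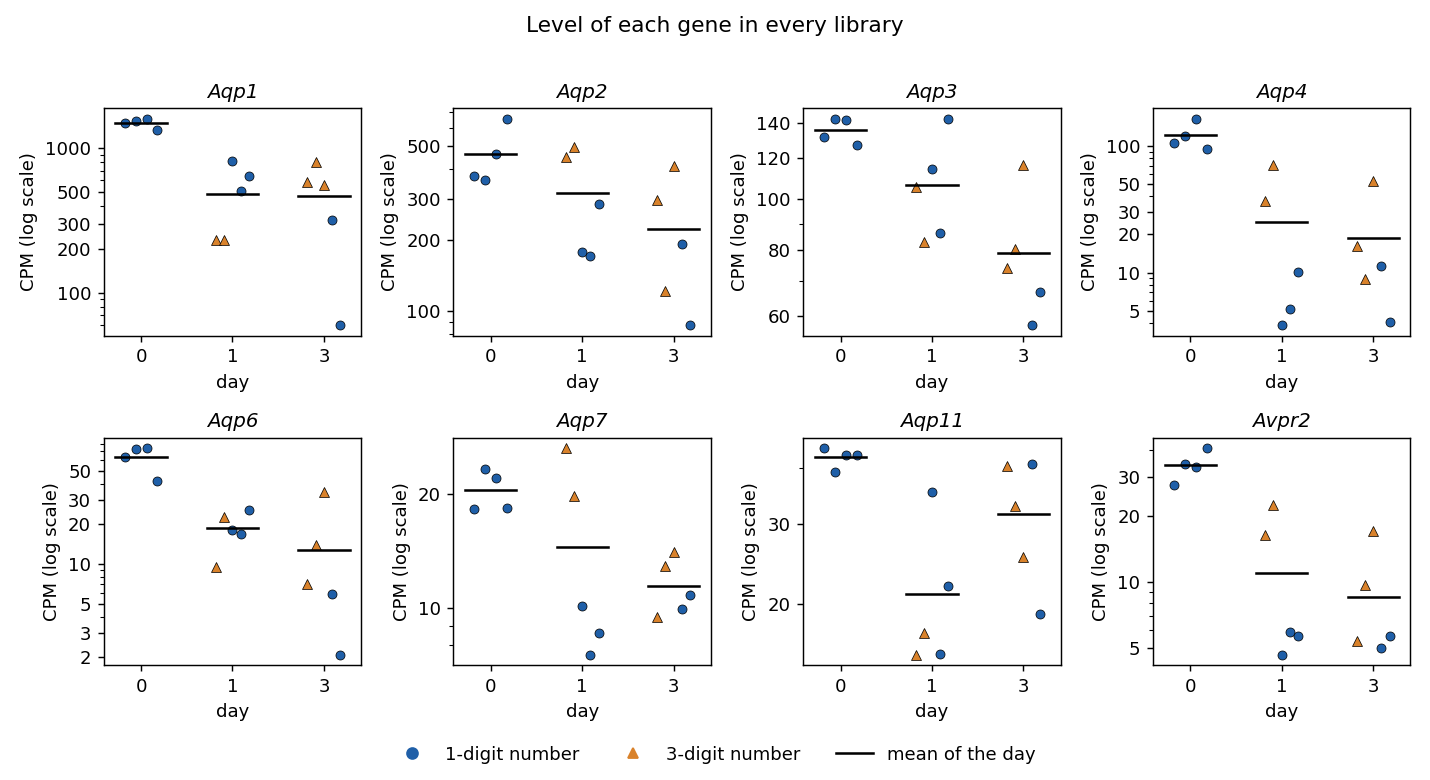
CPM of each gene (vertical axis, log scale) in every library of days 0, 1 and 3 (horizontal axis), with circles for libraries with 1-digit numbers, triangles for 3-digit numbers and a line at the mean of the day. The 1-digit libraries of day 1 are the lowest of their day for Aqp2, Aqp4, Aqp7 and Avpr2 and the highest for Aqp1.

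Because principal cells hold Avpr2, Aqp2, Aqp3 and Aqp4 together, ratios of their read counts within a library were also computed. These ratios do not depend on the scaling of the library, were chosen after the levels had been seen and are given with no test. In bulk tissue they also take in any other cells that make these genes, such as the urothelium for Aqp3. They are therefore not values of principal cells alone. Per read of Aqp3, Aqp4 had 0.752 to 1.17 reads at day 0. In the 1-digit libraries of day 1 it had 0.0333 to 0.0706 reads, in the 3-digit ones 0.348 and 0.854, and at day 3 0.0606 to 0.454. Avpr2 had 0.209 to 0.320 reads per read of Aqp3 at day 0, 0.0395 to 0.0680 in the 1-digit libraries of day 1, 0.155 and 0.268 in the 3-digit ones, and 0.0722 to 0.146 at day 3. Both ratios were thus below the day 0 range in every library of day 3 and in the 1-digit libraries of day 1. The ratio of Aqp2 to Aqp3 was 2.52 to 5.15 at day 0, 1.55 to 5.97 at day 1 and 1.31 to 4.003 at day 3, with overlapping ranges. The ratio of Avpr2 to Aqp2 was 0.0620 to 0.0957 at day 0 and lower in all 5 libraries of day 1 (0.0199 to 0.0448), and at day 3 it ran from 0.0180 to 0.0792.

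**Figure D3:**
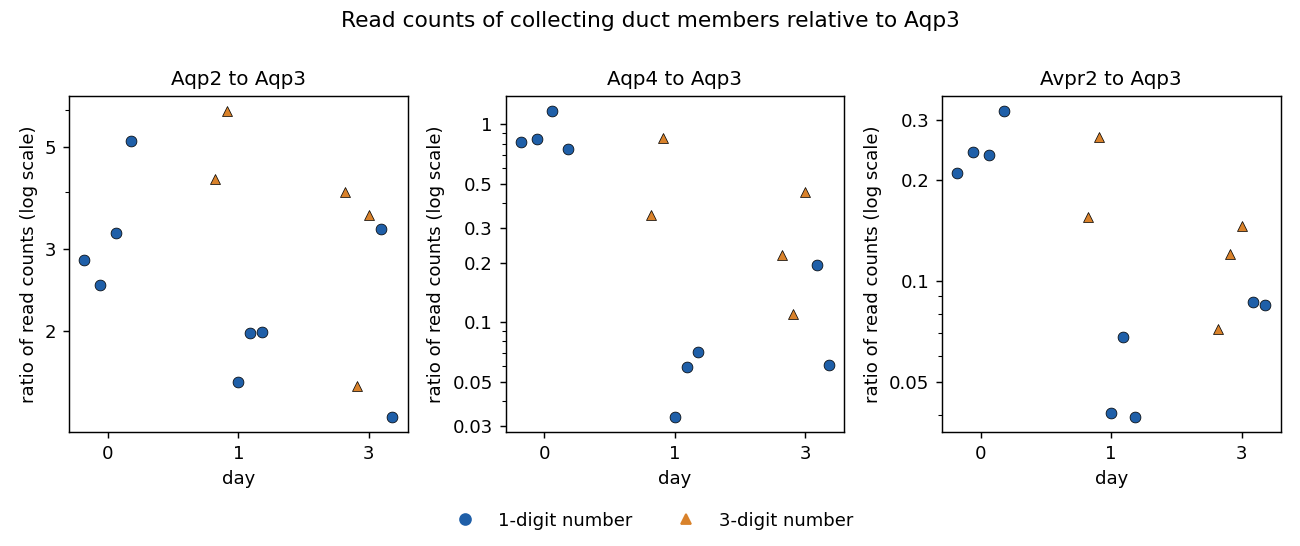
Reads of Aqp2, Aqp4 and Avpr2 per read of Aqp3 (vertical axis, log scale) in every library by day (horizontal axis), with circles for 1-digit and triangles for 3-digit numbers. The ratios of Aqp4 and of Avpr2 in the 1-digit libraries of day 1 lie below those of every day 0 library.

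Aqp6, the vesicle channel of intercalated cells, was lower at both days. It was at 63.6, 72.9, 73.9 and 42.0 CPM at day 0, at 9.48, 22.4, 18.1, 16.8 and 25.4 CPM in replicates 1 to 5 of day 1 and at 7.08, 13.9, 34.6, 5.92 and 2.06 CPM in those of day 3. No library after IRI reached the lowest of day 0, and replicate 3 of day 3 was the highest of them. The log2 fold change was -1.78 (SE 0.55, adjusted p = 0.0191) at day 1 and -2.30 (SE 0.56, adjusted p = 0.00700) at day 3. Without replicate 3 of day 3 the latter was -3.15 (adjusted p = 0.000502). Within the 1-digit libraries Aqp6 was 3.15-fold lower at day 1 (adjusted p = 0.00950) and 15.7-fold lower at day 3 (adjusted p = 0.000350), where it stood at 3.99 ± 2.73 CPM (SD, n = 2). The log2 fold change there was -3.97, and with 1 library of day 3 left it was -4.93 (adjusted p = 0.00158) without replicate 4 and -3.39 without replicate 5.

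Aqp1, the constitutive water channel of the proximal tubule and thin descending limb, was the most abundant member at day 0 and was 3.09-fold lower than at day 0 at day 1 (log2 fold change -1.63, SE 0.54, adjusted p = 0.0248) and 3.24-fold lower at day 3 (-1.69, SE 0.54, adjusted p = 0.0259). Its levels were 1501, 1551, 1607 and 1348 CPM at day 0, 230, 231, 818, 507 and 640 CPM in replicates 1 to 5 of day 1, and 585, 801, 555, 320 and 59.2 CPM in those of day 3. All libraries after IRI were below day 0, and replicate 5 of day 3 was the lowest. The day 1 call was lost without replicate 3 of day 0 (-1.59, adjusted p = 0.0517) and with the replicate numbers as a block in the fit (-1.48, adjusted p = 0.103). The day 3 call was lost without replicate 1, 2 or 3 of day 0 (adjusted p = 0.0523, 0.0532 and 0.0562) or replicate 4 of day 3 (0.0605). It was also lost with the replicate numbers as a block (-1.70, adjusted p = 0.0509) and with number format as a term in the fit (-1.80, adjusted p = 0.0769). That term assumes the same format difference at day 1 and day 3, and for Aqp1 the difference changed between them (3.28, adjusted p = 0.00661). Within the 1-digit libraries the log2 fold change was -1.20 (SE 0.39, adjusted p = 0.0186) at day 1 and -2.99 (SE 0.51, adjusted p = 0.000389) at day 3. The former was lost without replicate 4 (-1.04, adjusted p = 0.0800) or 5 of day 1 (-1.18, adjusted p = 0.0576), and with the block (-0.73, adjusted p = 0.227). The latter was -2.21 (adjusted p = 0.000349) without replicate 5 and -4.66 (adjusted p = 4.59e-06) without replicate 4 of day 3, each with 1 library of day 3 left.

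Aqp7, the glycerol channel of the straight proximal tubule, was at 18.2, 23.2, 22.0 and 18.4 CPM at day 0. Day 1 levels were 26.3 and 19.8 CPM in the 3-digit libraries (replicates 1 and 2) and 10.2, 7.54 and 8.61 CPM in the 1-digit ones, so that the 1-digit libraries were all below day 0 and the 3-digit ones were not. At day 3 it was at 9.47, 13.0, 14.1, 9.95 and 10.9 CPM, all below day 0. The day 3 value over all libraries was -0.83 (SE 0.32, adjusted p = 0.0548). It passed without replicate 1, 4 or 5 of day 1 (adjusted p = 0.0180, 0.0362 and 0.0471), which enter through the shared spread, and without replicate 3 of day 3 (0.0464). It also passed with RLE size factors (0.0464), by DESeq2 (0.0300), in a fit of only these days (0.00342) and with only the 3-digit libraries of the later days (-0.75, adjusted p = 0.0107). With number format as a term it was -1.31 (adjusted p = 0.00123). That term assumes the same format difference at day 1 and day 3, and for Aqp7 the difference changed between them (-1.17, adjusted p = 0.0174). Within the 1-digit libraries Aqp7 was 2.33-fold lower at day 1 (log2 fold change -1.22, SE 0.18, adjusted p = 0.000106) and 1.96-fold lower at day 3 (-0.97, SE 0.21, adjusted p = 0.00183). Over all libraries the day 1 value passed without replicate 1 of day 1 (-0.85, adjusted p = 0.0218). It also passed with the format term (-0.95, adjusted p = 0.00557), which carries the same assumption. Aqp7 is also known in fat cells, whose 8 marker genes summed to 60.8 to 184 CPM at day 0, 82.7 to 199.7 CPM at day 1 and 47.9 to 259 CPM at day 3, most of it from Fabp4, which endothelial cells also make. Adipoq, which defines fat cells and was named after its values were seen, was at 0 to 7.98 CPM in the libraries of day 0, 0 to 2.45 at day 1 and 0 to 0.0672 at day 3. The part of fat in the Aqp7 level was not tested.

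Aqp11, the intracellular aquaporin of the proximal tubule, fell at day 1. At day 3 most libraries were still below day 0, without passing the test. It was at 44.3, 39.3, 42.8 and 42.9 CPM at day 0, at 15.4, 17.2, 35.4, 15.5 and 21.9 CPM in replicates 1 to 5 of day 1, and at 40.4, 32.9, 25.4, 41.0 and 19.0 CPM in those of day 3. Every library of day 1 was below day 0, while replicates 1 and 4 of day 3 were inside the day 0 range. The log2 fold change was -1.01 (SE 0.26, adjusted p = 0.00731) at day 1 and -0.41 (SE 0.26, adjusted p = 0.229) at day 3. In the 1-digit libraries it was -0.80 (SE 0.28, adjusted p = 0.0247) at day 1, a call lost without replicate 4 (-0.56, adjusted p = 0.119) or 5 of day 1 (-0.73, adjusted p = 0.0849). At day 3 it was -0.50 (SE 0.32, adjusted p = 0.201), and without replicate 4 of day 3, which leaves 1 library assumed to vary like the other groups, -1.16 (adjusted p = 0.0222).

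Between day 1 and day 3 no member was called by edgeR's test, and none by DESeq2. At the adjusted threshold 15.9% of all genes tested were called. At an unadjusted p under 0.05 there were 2 members, Aqp3 (log2 fold change -0.43, SE 0.19, adjusted p = 0.128) and Aqp11 (0.59, SE 0.25, adjusted p = 0.114). The share of all genes at that unadjusted threshold was not counted. Aqp3 passed without replicate 3 of day 3 (-0.62, adjusted p = 0.0327), and Aqp11 without replicate 3 of day 1 (0.86, adjusted p = 0.0243) or replicate 5 of day 3 (0.71, adjusted p = 0.0455). For Aqp1, Aqp4, Aqp6 and Aqp7 the sign of the change between these days differed between the formats, and for Aqp2, Aqp3, Aqp11 and Avpr2 it did not. With only the 1-digit libraries of these days, Aqp1 (log2 fold change -1.80, adjusted p = 0.0239), Aqp3 (-0.89, adjusted p = 0.00500) and Aqp6 (-2.33, adjusted p = 0.00194) were lower at day 3 than at day 1, 3 of 8 where 36.0% of all genes were called, a share near the background. With only the 3-digit libraries Aqp1 (1.49, adjusted p = 0.00219) and Aqp11 (1.01, adjusted p = 0.00809) were higher and Aqp7 (-0.92, adjusted p = 0.0167) was lower, again 3 of 8, where 16.0% of all genes were called.

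The number format divided the members within day 1. Aqp4 (8.58-fold; log2 difference 3.10, SE 0.65, adjusted p = 0.00328), Avpr2 (3.58-fold; 1.84, SE 0.35, adjusted p = 0.00191) and Aqp7 (2.63-fold; 1.39, SE 0.21, adjusted p = 0.000556) were higher in the 3-digit libraries, and Aqp1 was 2.84-fold lower (-1.51, SE 0.48, adjusted p = 0.0274). Of all genes tested 35.0% were called in this comparison, 18.6% as higher and 16.4% as lower. Aqp2, Aqp4, Aqp7 and Avpr2 had every 3-digit library above every 1-digit one, as 31.2% of all genes had, and Aqp1 had the reverse, as 29.4% had. Aqp2 did not pass (1.17, SE 0.44, adjusted p = 0.0529), although it did so by DESeq2 (1.13, adjusted p = 0.0338), with library totals in place of TMM (1.37, adjusted p = 0.0275), with no filter on low counts (1.16, adjusted p = 0.0468), and without replicate 4 of day 0 (adjusted p = 0.0481), replicate 5 of day 1 (0.0457) or any of replicates 2 to 5 of day 3 (0.0165 to 0.0424). The Aqp1 call was lost without replicate 1, 2, 3 or 5 of day 1 (adjusted p = 0.112, 0.141, 0.0701 and 0.0502), where the first and second omissions leave 1 library with a 3-digit number. Aqp3, Aqp6 and Aqp11 did not pass, with log2 differences of -0.28, -0.33 and -0.57.

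At day 3 all 8 values were above 0, and 2 of 8 passed: Aqp1 (3.41-fold higher in the 3-digit libraries; log2 difference 1.77, SE 0.49, adjusted p = 0.0270) and Aqp6 (4.61-fold higher; 2.21, SE 0.64, adjusted p = 0.0318), where 18.5% of all genes were called and 10.3% as higher. The 3-digit libraries of Aqp1, Aqp3 and Aqp6 lay above both 1-digit ones, as in 21.5% of all genes. Both calls depended on the libraries included. Without replicate 3 of day 3 (adjusted p = 0.0528 and 0.113) or without replicate 5 (0.0892 and 0.237) neither passed, and the count was 0, where 8.06% and 0.638% of all genes were called. The log2 difference of Aqp6 was then 1.39 without replicate 3, and that of Aqp1 was 0.99 without replicate 5. Without replicate 5 the 1-digit arm is 1 library. Without replicate 2 Aqp1 did not pass either (0.0687), and without replicate 4, which also leaves 1 library in that arm, the log2 differences were 3.45 and 3.17. Without replicate 1 the count was 5, where 33.5% of all genes were called, with Aqp3 (0.66, adjusted p = 0.0404), Aqp4 (2.01, adjusted p = 0.0481) and Avpr2 (1.33, adjusted p = 0.00480) in addition. Over all libraries the value of Aqp4 was 1.76 (adjusted p = 0.0850). It also passed without replicate 2 (2.16, adjusted p = 0.0458), but was 0.70 (adjusted p = 0.399) without replicate 3 and 2.68 (adjusted p = 0.0690) without replicate 4. Aqp2, at 0.99 (adjusted p = 0.138) over all libraries, passed without replicate 2 (1.35, adjusted p = 0.0472) and was 1.67 (adjusted p = 0.0628) without replicate 4.

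The format difference itself differed between the days for Aqp1, which was lower in the 3-digit libraries at day 1 and higher in them at day 3 (difference of the log2 differences 3.28, SE 0.68, adjusted p = 0.00661), and for Aqp7 (-1.17, SE 0.30, adjusted p = 0.0174), as it did for 17.6% of all genes (9.10% above 0 and 8.45% below). The proximal tubule list moved with Aqp1: in the same contrast 12 of its 16 genes were called higher (median 2.73), with 10 lower in the 3-digit libraries of day 1 and 7 higher in those of day 3. The Aqp1 value was 4.96 (adjusted p = 0.000129) without replicate 4 of day 3 and 2.51 (adjusted p = 0.00312) without replicate 5, each with 1 library left in the 1-digit arm. Aqp6 had a value of 2.53 (adjusted p = 0.0548) and passed by DESeq2 (2.59, adjusted p = 0.00849), with no filter on low counts (2.55, adjusted p = 0.0454), and without replicate 2 of day 1 (3.28, adjusted p = 0.0471) or replicate 4 of day 3 (3.49, adjusted p = 0.0400), but was 1.72 (adjusted p = 0.107) without replicate 3 of day 3. The Aqp7 call was lost without replicate 1 of day 1 (-0.93, adjusted p = 0.0958) or replicate 5 of day 3 (-1.12, adjusted p = 0.0518), and the count was then 1 in either case, where 8.85% and 13.2% of all genes were called. Each of these omissions leaves 1 library in an arm of the difference. Without replicate 1 of day 3 it was 4 (22.1% of all genes), with Aqp3 (0.94, adjusted p = 0.0452) and Aqp6 (2.92, adjusted p = 0.0148), and without replicate 3 of day 3 it was 4 (17.6%), with Aqp4 (-2.39, adjusted p = 0.0378) and Avpr2 (-1.33, adjusted p = 0.0347). Over all libraries Aqp4 had -1.34 (adjusted p = 0.325) and Avpr2 -0.84 (adjusted p = 0.269), and Aqp4 had -0.42 without replicate 4 of day 3. Fat cell markers moved in the same direction as Aqp7 in this contrast, with 2 of the 4 adipocyte genes tested called lower (median -5.39), and so did 7 of 10 endothelial genes (median -1.27) and 5 of 8 smooth muscle genes (median -3.002). Their part in the Aqp7 value was not tested.

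**Figure D4:**
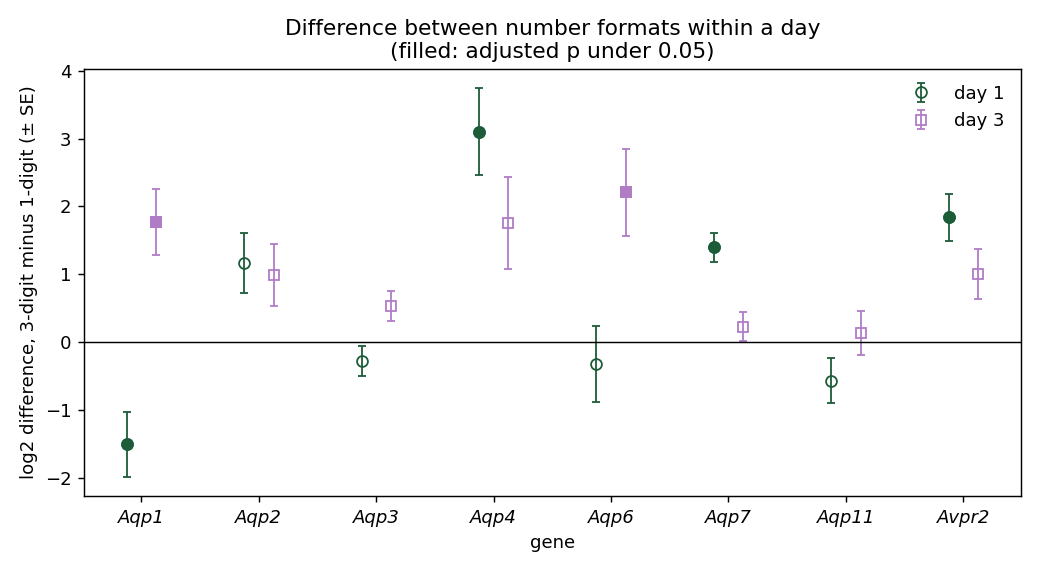
Log2 difference between 3-digit and 1-digit libraries with its SE (vertical axis) for each gene (horizontal axis) at day 1 (circles) and day 3 (squares), with filled symbols for an adjusted p under 0.05. Aqp1 lies below 0 at day 1 and above 0 at day 3, while Aqp4 and Avpr2 lie above 0 at both.

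Markers of other parts of the kidney moved with the formats too. Slc14a2, the urea transporter of the inner medullary collecting duct, named here after its values were seen, was at 65.7 to 102 CPM at day 0, at 0 to 7.88 CPM in the day 1 libraries with 1-digit numbers and at 119 and 228 CPM in those with 3-digit numbers, and at day 3 it ran from 1.10 to 150.5 CPM in libraries of either format. At day 1 the principal cell list had 5 of 14 genes higher and none lower in the 3-digit libraries (median log2 difference 0.50), and the urothelial list had 5 of 9 higher and none lower (median 3.69). The proximal tubule list had 10 of 16 genes lower and none higher (median -1.67), and its summed level was 53490 to 69402 CPM in the 1-digit libraries against 24473 and 38370 CPM. Aqp4 and Avpr2 moved in the direction of the first and second lists, and Aqp1 in that of the third. Aqp7, also a proximal tubule gene, was higher, opposite to that list.

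The adipocyte list had 1 of 4 genes tested higher at day 1 and none lower (median 2.98). The gene called was Plin4, a protein of lipid droplets named after its values were seen, at 13.8 ± 9.54 CPM (SD, n = 2) in the 3-digit libraries and 1.82 ± 1.15 (n = 3) in the 1-digit ones. Cidec, a lipid droplet protein of fat cells, was at 24.7 ± 11.2 and 3.01 ± 2.72 CPM (log2 difference 3.01, adjusted p = 0.0805), while Fabp4 was at 141 ± 5.81 and 130 ± 47.3 CPM (0.12, adjusted p = 0.848). Aqp7 was higher in the same libraries, and the part of these markers in it was not tested. The smooth muscle list had 7 of its 8 genes higher in the 3-digit libraries (median 1.68).

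The other lists gave mixed counts at day 1. In the tonicity and urea list, which holds Slc14a2, 1 of 9 genes was higher in the 3-digit libraries and 2 were lower, among them Sgk1 (log2 difference -1.599, adjusted p = 0.00150). In the thin limb list 4 of 9 were higher and 1 lower (median 0.34). The lower one was Cldn4, at 197 ± 8.80 CPM in the 3-digit libraries and 773 ± 83.7 in the 1-digit ones. In the thick limb list 3 of 10 were higher and 2 lower (median -0.06), and in the intercalated cell list 1 of 14 was higher and 3 were lower (median -0.06). In the tubular injury list 2 of 10 were higher and none lower (median 0.04), and 1 of the 2 was Spp1, osteopontin, at 27179 ± 3933 CPM in the 3-digit libraries against 9701 ± 2987 CPM.

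At day 3 the lists differed by format in other ways. In the 3-digit libraries 7 of 16 proximal tubule genes, 6 of 10 thick limb genes, 4 of 14 principal cell genes and 4 of 14 intercalated cell genes were higher, and 7 of 10 endothelial genes, 4 of 8 smooth muscle genes and 2 of 4 adipocyte genes were lower. Of 10 tubular injury genes 1 was lower and none higher (median -0.22). The part of the tissue sampled was not given, and the part of these markers in the format differences was not tested.

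The pathway from receptor to channel was followed in a list of 25 genes of vasopressin signalling and Aqp2 regulation. At day 1, 5 were higher and 6 lower, and at day 3, 4 were higher and 3 lower, and the median log2 fold changes (0.00 and 0.02) were close to those of all genes tested (0.01 and 0.05). Ptger3, the prostaglandin receptor EP3 that opposes vasopressin through Gi, fell most, from 94.1 ± 16.4 CPM (SD, n = 4) to 11.4 ± 5.52 (n = 5) at day 1 (log2 fold change -3.04, SE 0.38, adjusted p = 6.73e-05) and 12.4 ± 5.49 at day 3 (-2.92, SE 0.38, adjusted p = 0.000139). Ptger4, the prostaglandin receptor EP4 that raises cAMP, rose from 2.78 ± 0.389 to 11.8 ± 1.52 CPM at day 1 (2.09, SE 0.22, adjusted p = 2.47e-05) and was also higher at day 3 (1.64, adjusted p = 0.000171). These and the next genes, other than Gnas and Prkar1a, were named after their values were seen.

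Adcy6, the adenylyl cyclase that vasopressin mainly acts through in the collecting duct, fell from 131 ± 5.19 to 75.9 ± 19.9 CPM at day 1 (log2 fold change -0.79, SE 0.17, adjusted p = 0.00233) and was at 129 ± 15.2 CPM at day 3 (-0.02, adjusted p = 0.925). Creb1, the factor that binds cAMP response elements, was lower at day 1 (-0.77, SE 0.28, adjusted p = 0.0418), and Pde4b, a phosphodiesterase that breaks down cAMP, was higher (1.90, SE 0.38, adjusted p = 0.00164). Gnas, which encodes the stimulatory G protein, had a log2 fold change of -0.13 (adjusted p = 0.348) at day 1 and fell at day 3 (-0.46, adjusted p = 0.00646). Prkar1a, a regulatory subunit of protein kinase A, rose at day 1 (0.46, adjusted p = 0.00841) and was at 0.02 (adjusted p = 0.902) at day 3. In the 1-digit libraries of day 1, 6 of the 25 were higher and 11 lower, where 58.5% of all genes were called and 29.6% as lower, and in those of day 3, 5 were higher and 6 lower, where 53.7% were called and 25.1% as lower. There Creb1 had -1.41 (adjusted p = 1.33e-05) at day 1, and at day 3 it was lower (-0.63, adjusted p = 0.00913) and Pde4b higher (1.05, adjusted p = 0.00206), where over all libraries neither passed at day 3 (-0.41, adjusted p = 0.274, and 0.76, adjusted p = 0.121). Ptger3 had -3.62 (adjusted p = 7.47e-07) and -3.72 (adjusted p = 4.26e-06). By format at day 1, 13 were higher and 1 lower in the 3-digit libraries, where 18.6% of all genes were higher and 16.4% lower.

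Only 3 of the 9 other aquaporins, vasopressin or oxytocin receptors and hormones listed passed the filter. Avpr1a, the V1a vasopressin receptor, was lower than at day 0 (15.5 ± 3.62 CPM) at day 1 (7.02 ± 2.35; log2 fold change -1.14, adjusted p = 0.00889) and at day 3 (4.72 ± 1.81; -1.71, adjusted p = 0.00123). Aqp8 was higher at day 1 (2.74, adjusted p = 0.00214) at a low level, 2.05 ± 1.14 CPM against 0.302 ± 0.135, and was at 0.420 ± 0.290 CPM at day 3. The oxytocin receptor Oxtr, named after its values were seen, rose from 0.325 ± 0.193 to 1.60 ± 0.501 CPM at day 1 (2.26, adjusted p = 0.00754). Avpr1a had -0.84 (adjusted p = 0.0115) at day 1 and -2.16 (adjusted p = 0.000155) at day 3 among 1-digit libraries, and Oxtr, which over all libraries had 0.97 (adjusted p = 0.220) at day 3, was higher there (1.81, adjusted p = 0.0149). Mip and Aqp12 had no read in any library.

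In the tonicity and urea list, 2 of the 9 genes tested were higher and 4 lower at day 1, and 1 was higher and 2 lower at day 3. Over 1-digit libraries alone 3 were higher and 5 lower at day 1, and 2 were higher and 1 lower at day 3. Nfat5, the tonicity factor, was higher at day 1 (log2 fold change 0.44, SE 0.13, adjusted p = 0.0164), while its known targets Slc6a6, a taurine transporter (-1.10, adjusted p = 0.000984), and Slc6a12, a betaine transporter (-2.11, SE 0.75, adjusted p = 0.0354), were lower. S100a4, known in fibroblasts and leukocytes, was higher at day 1 (1.77) and day 3 (3.09). Nfat5, Slc6a12 and S100a4 were named after their values were seen. Sgk1, a kinase induced by aldosterone, had a value of 0.95 (adjusted p = 0.0622) at day 1 and 0.28 (adjusted p = 0.587) at day 3, and was higher in the 1-digit libraries alone at both days (1.402, adjusted p = 0.000190, and 0.69, adjusted p = 0.0341). Akr1b3, aldose reductase, was listed at 0 in all 14 libraries. The gene annotation used for counting is not given, so this 0 is not read as a lack of expression.

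The cells that carry the members were described by marker lists without the members. Of 14 principal cell genes, 4 were lower and none higher at day 1 (median log2 fold change -0.37), and 6 were lower and 1 higher at day 3 (-0.72). Considering 1-digit libraries alone, 7 were lower at day 1 (-0.54) and 9 at day 3 (-0.97), with none higher. Hsd11b2, the enzyme that shields the mineralocorticoid receptor from glucocorticoids, fell from 174 ± 14.7 to 62.1 ± 16.7 CPM at day 1 (-1.49, SE 0.40, adjusted p = 0.00939) and 58.5 ± 39.7 at day 3 (-1.57, adjusted p = 0.00922), and was named after its values were seen. Calb1, a calcium-binding protein of the connecting tubule, fell at both days (-1.88, adjusted p = 7.05e-05, and -2.84, adjusted p = 6.53e-06), and Tfcp2l1, a collecting duct transcription factor, had a value of 0.23 (adjusted p = 0.410) at day 1 and was higher at day 3 (0.77, adjusted p = 0.0158). Hsd11b2 had -2.88 (adjusted p = 2.28e-05) in the 1-digit libraries of day 3, and Tfcp2l1 did not pass (0.65, adjusted p = 0.05096). The summed level of the list was 1402 to 1622 CPM at day 0, 791 to 1042 at day 1 and 799 to 1439 at day 3, with means of 1476, 903 and 1056. Much of its change came from Calb1, at 476 ± 94.7, 129 ± 22.4 and 66.3 ± 24.2 CPM on these days. Tfcp2l1 went the other way, at 354 ± 20.8, 415 ± 80.8 and 604 ± 185 CPM. The sum is thus not a measure of principal cells alone.

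Of 14 intercalated cell genes, 6 were lower at day 1 (median -0.64) and 7 at day 3 (-0.78), with none higher. Among 1-digit libraries 8 were lower and 1 higher at day 1 (-0.70), and 10 were lower and none higher at day 3 (-1.37). Slc4a1, the anion exchanger of acid-secreting cells, was at 58.1 ± 7.29 CPM at day 0, 7.31 ± 1.87 at day 1 (-2.995, SE 0.52, adjusted p = 0.000707) and 6.04 ± 5.15 at day 3 (-3.26, adjusted p = 0.000607), and Rhcg, an ammonia channel, went from 92.3 ± 2.57 to 20.8 ± 7.84 and 17.2 ± 12.8 CPM (-2.15, adjusted p = 0.00255, and -2.42, adjusted p = 0.00174). Both were named after their values were seen. Rhcg had -3.84 (adjusted p = 3.11e-05) in the 1-digit libraries of day 3. Slc26a4, the exchanger pendrin of base-secreting cells, and the proton pump subunit Atp6v0a4 did not pass at either day, with log2 fold changes of 0.43 and -0.54 and of -0.68 and 0.29. In the 1-digit libraries of day 1 alone Slc26a4 was higher (0.83, adjusted p = 0.00490) and Atp6v0a4 lower (-0.72, adjusted p = 0.0341).

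Of 16 proximal tubule genes, 4 were lower at day 1 (median -0.72) and 10 at day 3 (-1.72), with none higher. In the 1-digit libraries 4 were lower at day 1 (median -0.20) and 13 at day 3 (-2.34). Their summed level was 62638 to 65396 CPM at day 0, 53490 to 69402 CPM at day 1 in libraries with 1-digit numbers, where Aqp1 was already at 43.6% of its day 0 mean, and 13142 and 15622 CPM in those of day 3. Kap, an androgen-regulated protein and the most abundant of the list, had a log2 fold change of -0.19 (adjusted p = 0.604) at day 1 and fell at day 3 (-2.40, adjusted p = 8.67e-05), and Acsm2, an acyl-CoA synthetase, had -0.46 (adjusted p = 0.346) and -1.73 (adjusted p = 0.00480). Hnf4a, a transcription factor of the proximal tubule, was lower at day 1 (-1.02, adjusted p = 0.00133), and was at -0.53 (adjusted p = 0.0518) at day 3, where it passed in the 1-digit libraries (-0.87, adjusted p = 0.00589). Of the 8 proximal tubule transcription factors it belongs to, 3 were lower at day 1, and 1 was higher and 1 lower at day 3. Taking 1-digit libraries alone, 4 were lower at day 1, and 1 was higher and 3 lower at day 3. Ppara, a regulator of fatty acid oxidation, was at 153 ± 13.0 CPM at day 0 and 137 ± 61.6 at day 1 (-0.16, adjusted p = 0.741) and was higher at day 3, at 349 ± 173 CPM (1.19, adjusted p = 0.0242).

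Among the other segments, 7 of 10 thick limb genes were lower at either day, with medians of -1.42 and -1.21 and none higher. For 1-digit libraries alone 6 were lower and 1 higher at day 1, and 9 were lower and 1 higher at day 3 (medians -1.78 and -1.75). Umod, the main protein of normal urine, fell from 5769 ± 997 CPM to 3879.97 ± 958 at day 1 (-0.57, adjusted p = 0.0407) and 2318 ± 389.6 at day 3 (-1.32, adjusted p = 0.000559), and the day 1 value did not pass in the 1-digit libraries (-0.47, adjusted p = 0.0977). Of 9 thin limb genes tested, 3 were higher and 2 lower at either day, and the 3 higher, among them Cldn4 (4.92, adjusted p = 0.000194) and Id3 (1.75, adjusted p = 6.20e-05), are not restricted to thin limbs. With 1-digit libraries alone 3 were higher and 6 lower at day 1 (median -1.44), and 3 were higher and 2 lower at day 3 (median -0.63). Of 10 tubular injury genes, 9 were higher at day 1 and 9 at day 3 (medians 3.44 and 3.54), as in the 1-digit libraries (medians 3.33 and 3.46), with Lcn2 at 2.24 ± 0.696 CPM at day 0 and 1688 ± 833 at day 1. Of 10 endothelial genes, which include cells of the vasa recta where Aqp1 is also known, 1 was higher and 2 lower at day 1 and none was called at day 3 (median 0.25). Restricted to 1-digit libraries, 3 were higher and 3 lower at day 1, and 7 were higher and none lower at day 3. Of 9 leukocyte genes tested, 4 were higher and 1 lower at both days, and in the 1-digit libraries 4 were higher and 2 lower at both. Of 8 smooth muscle genes 3 were higher at day 1 and 4 at day 3, and in the 1-digit libraries 3 were higher and 1 lower at day 1 and 4 were higher at day 3. Of the 4 adipocyte genes tested none was called over all libraries at either day, and 3 rose at day 3 when 1-digit libraries were taken alone. Of 9 urothelial genes, 2 were lower at day 1 and 1 was higher and 1 lower at day 3 on the basis of 1-digit libraries alone.

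**Figure D5:**
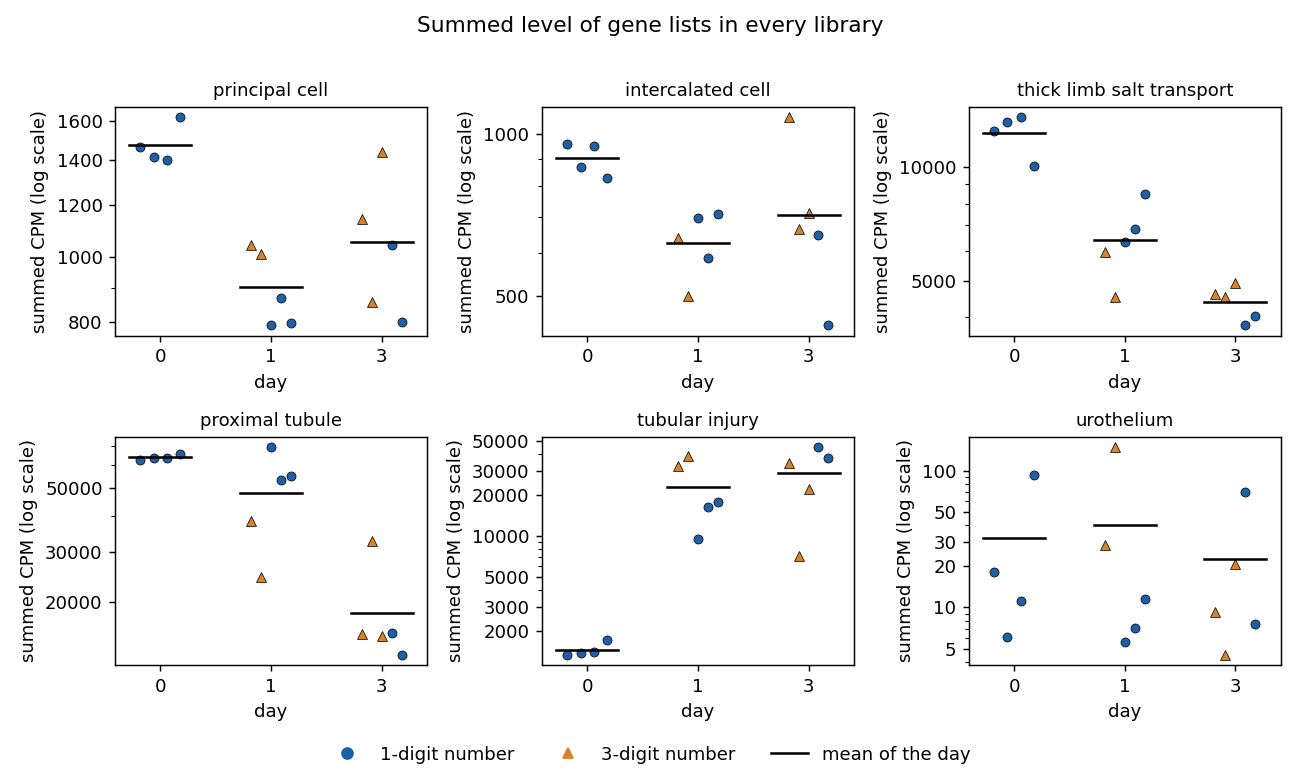
Summed CPM of 6 gene lists (vertical axis, log scale) in every library by day (horizontal axis), with circles for 1-digit and triangles for 3-digit numbers and a line at the mean of the day. The proximal tubule sum of the 1-digit libraries of day 1 overlaps day 0, and the principal cell sum, which includes Calb1 of the connecting tubule, lies below day 0 in every library of day 1.

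The genes whose log2 CPM followed each member most closely over the 14 libraries are given as a description with no test, since all points share the change between days. Aqp1 was most like Aldh6a1 (Pearson r = 0.989), Gcdh (0.987) and Nnt (0.981), mitochondrial enzymes of amino acid breakdown and of NADPH supply. Aqp4 was most like Mcoln3 (0.974), Btc (0.969) and Apela (0.966), and Avpr2 was most like Khdrbs3 (0.968), Stk32b (0.964) and Zfp874a (0.960). Aqp2 had lower values, with Rtn1 (0.909), Proser2 (0.880) and Tmem120b (0.876), and so had Aqp3, with Rasgrp1 (0.914), Col19a1 (0.900) and Eci3 (0.884). The closest genes to Aqp6 were Vstm2a (0.948), Orc4 (0.947) and Gm20300 (0.944), those to Aqp7 Saysd1 (0.967), Arl16 (0.963) and AW209491 (0.961), and those to Aqp11 Mapk14 (0.952), Fam195a (0.943) and Fam214a (0.936).

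Among the members, Avpr2 and Aqp4 had the highest correlation (0.939), followed by Avpr2 and Aqp7 (0.881), and Aqp2 and Aqp4 (0.857). The neighbours on chromosome 15, Aqp2 and Aqp6, had 0.675, and those on chromosome 4, Aqp3 and Aqp7, had 0.457. The proximal tubule members Aqp1 and Aqp7 had 0.246 and Aqp1 and Aqp11 had 0.693. The lowest value of all pairs was that of Aqp7 and Aqp11 (0.127).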

How the data were processed

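RNA of 14 mouse kidney samples was extracted with TRIzol and sequenced from Illumina TruSeq libraries. The submitters' processing notes name Trimmomatic (a read trimmer), STAR (an aligner) and mm10, with versions and gene annotation not given in the sources used here, and the authors deposited STAR's gene counts, which are raw read counts in 3 columns by strand. The column for reverse-stranded reads (column 4) was used, since 98.5% to 98.7% of stranded reads fell on it. Its entries that name no gene, 29.0% to 38.3% of a library, were left out of library sizes and tests.

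Genes were filtered with filterByExpr by day, libraries were scaled by TMM, and changes were tested by edgeR's quasi-likelihood test (edgeR 4.0.16, limma 3.58.1, R 4.3.3), with 1 term per day or, for comparisons by number format, 1 term per day and format. P-values were adjusted over 14300 of 24411 genes by the Benjamini-Hochberg method. Log2 CPM used a prior count of 2. The genes and gene lists were chosen with earlier results of these data known. Named list genes are the 2 with the highest mean CPM of each list, the 3 most correlated with each member and any that overlap a member, and others are marked in the text. Loci and exon lengths are from GENCODE's annotation and promoters from RefSeq, both on GRCm38, and no promoter is printed for Aqp4. Depth limited precision most for low genes, such as Aqp6 at 28 reads in 1 library. Other settings were library totals without TMM, RLE size factors, no filter on low counts, a fold threshold, DESeq2 (1.42.0), a replicate block, a format term, subsets of libraries and leaving out each library.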

Additional observations from a re-analysis of the deposited data

Results flagged for a closer look

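The difference between 3-digit and 1-digit libraries was not the same at day 1 and day 3 for Aqp1 and Aqp7, by edgeR's test of the difference itself. For Aqp1 the log2 difference moved by 3.28 from day 1 to day 3 (adjusted p = 0.00661; 4.96 without replicate 4 of day 3 and 2.51 without replicate 5), with both 3-digit libraries of day 1 below the 1-digit ones and all 3 of day 3 above. Of the 16 proximal tubule genes 12 were called higher in the same contrast (median 2.73), where 9.10% of all genes were, and their part in the Aqp1 result was not tested. For Aqp7 it moved by -1.17 (adjusted p = 0.0174), from 1.39 at day 1 to 0.22 at day 3. Of the 4 adipocyte genes tested 2 were called lower in the same contrast (median -5.39), where 8.45% of all genes were, and their part in the Aqp7 result was not tested. For Aqp4 at day 3, replicate 3 stood far above the other libraries on the CPM scale, at 52.7 CPM against 4.04 to 16.1, and the log2 fold change against day 0 was -3.63 without it and -2.71 with it. On that scale 1 library stood apart in 24 groups of values checked, where chance would give 1.2, and on the log2 CPM scale 0 did.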

How the results depend on the processing

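Of the values recomputed under other settings, 1345 kept direction and call, 55 gained a call, 44 lost one and 20 turned sign. The replicate numbers were not used as pairs in the main tests. Deviations of log2 CPM from the mean of the day had correlations of -0.175 to 0.261 between same-numbered libraries. These deviations also carry the number format, and replicate 3 has a 1-digit number at day 1 and a 3-digit one at day 3. Low correlations therefore cannot show that pairing is absent. With the numbers as a replicate block, 3 members changed at day 1 against 5, where 36.1% of all genes were called against 42.1%. By format at day 3, 0 differed against 2, where 0.00% of all genes were called against 18.5%. The block also ended the calls of Aqp1 at day 3 and of Aqp1 and Aqp11 in the 1-digit libraries of day 1. It added that of Aqp2 by format at day 1. Aqp3 by format at day 1 was 0.0105 under the block, and Aqp11 by format at day 3 was -0.36. Leaving out each library in turn gave 3 to 6 members at day 1, 3 to 7 at day 3, 0 to 1 between days 3 and 1, 3 to 5 by format at day 1, 0 to 5 at day 3, 1 to 4 for the change in format difference, 4 to 7 in the 1-digit libraries of day 1 and 6 to 8 in those of day 3. The share of all genes called moved under the same omissions. It ran from 32.9% to 45.9% at day 1, from 23.0% to 39.7% at day 3 and from 8.90% to 23.5% between days 3 and 1. Omissions for the counts by format or within a format include some that leave 1 library in an arm. Between days 3 and 1, where no member was called, library totals without TMM gave 1 (Aqp11, where 15.4% of all genes were called), the 1-digit libraries alone gave 3 (36.0%) and the 3-digit libraries alone gave 3 (16.0%). Signs turned there for Aqp1 (0.14 with library totals, 1.49 with 3-digit libraries, -0.35 to 0.21 leaving out a library), Aqp4 (0.28 with 1-digit libraries, -1.34 to 0.42), Avpr2 (-0.78 to 0.0684), Aqp6 (0.21 with 3-digit libraries) and Aqp7 (0.23 with 1-digit libraries). With the 3-digit libraries, day 1 against day 0 was 0.0367 for Aqp2 and 0.18 for Aqp7. Leaving out a library also turned Aqp6 by format at day 1 (-1.08 to 0.15), Aqp11 by format at day 3 (-0.34 to 0.80) and the change in format difference of Aqp2 (-0.64 to 0.50). Library totals moved the median log2 change of all genes from 0.0542 to 0.193 at day 3 and from 0.0313 to 0.244 by format at day 1. The share of called genes that were higher then went from 58.5% to 73.8% at day 3, from 53.6% to 77.9% between days 3 and 1, from 53.1% to 73.1% by format at day 1 and from 51.9% to 35.0% for the change in format difference. Among all genes, requiring a 2-fold change left 2963 of 6020 calls at day 1, 2597 of 4757 at day 3 and 921 of 2276 between days 3 and 1. The 1-digit libraries gave 8119 at day 3 and 5194 between days 3 and 1, where fitting those days alone gave 831. The block gave 2507 of 5001 by format at day 1, 0 of 2645 at day 3, 1608 of 2510 for the change in format difference and 4093 of 7680 in the 1-digit libraries of day 3. By format at day 3, leaving out a library gave 4771 (without replicate 1), 1176 (2), 1144 (3) or 91 (5), and at day 1 1997 without replicate 2. Between days 3 and 1 the fewest were 1269, without replicate 4 of day 1, and for the change in format difference 1260, without replicate 1 of day 1. The causes were not tested.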
